A study of Saccharomyces cerevisiae with 3 samples.

Results

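The genes described are 44 of the 6212 rows of the table, named by their systematic identifiers, and they encode nucleolar and nuclear factors that build the large ribosomal subunit of budding yeast. The list came from a fixed set of identifiers and not from a threshold on the measured ratios. It was chosen with earlier results of these data known, and all 44 carried the expected symbol in RefSeq. The strain tested was tetO:HAL3 vhs3::URA3, in which VHS3 is replaced by the URA3 marker and HAL3 stands behind a tetO promoter that doxycycline switches off, and it was set against the wild type strain of the same JA100 background. Cultures of both strains received doxycycline at 100 µg/ml in synthetic complete medium and were kept at 28 °C for 15 h, so the drug was present in the mutant and in the wild type alike. Total RNA of both strains was hybridised together on spotted arrays with 2 colours. The labels describe 2 biological replicates on 3 arrays, since replicate 1 was run with the mutant in Cy5 (called the Cy5 array below) and again with the mutant in Cy3 (the Cy3 array), and replicate 2 was run once, with the mutant in Cy5.

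The large subunit, 60S, is assembled around a long precursor RNA in the nucleolus, travels through the nucleoplasm and is finished in the cytoplasm. Assembly factors bind in waves. The first fold and cut the precursor, RNA helicases and methyltransferases remodel it, and GTPases and placeholder proteins stay on the particle until it leaves the nucleus. In yeast the genes of these factors form the ribosome biogenesis regulon, which is transcribed together, strongly in fast growth and weakly in stress or starvation.

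All values are log2 ratios of mutant over wild type, after each array was centred on its median gene, so each is relative to the typical gene and not to the cell's total RNA. In bulk RNA, a change in the share of cells in a given state and a change per cell cannot be told apart. VHS3 was at −2.06 on the Cy5 array, −2.5 on the Cy3 array and 0.09 on the array labelled replicate 2. On these arrays, taken in that order, HAL3 (RefSeq symbol SIS2) had ratios of −1.33, −1.29 and −0.14, and URA3 at −1.40, −0.82 and −0.33. URA3, the marker that the mutant carries in place of VHS3, was thus lower in the mutant on every array, which runs against the genotype in the direction taken here, and the labels do not state which channel is the numerator. The deleted gene went against the label of the third array, and every direction below that includes the array labelled replicate 2 carries that mismatch. Ratios on that array were also narrower, with an SD of 0.35 over all genes against 0.65 and 0.70 on the arrays of replicate 1. Precision is limited by the number of arrays.

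On the dye-swap pair the genes for 60S assembly stood higher in the mutant, and they were centred near 0 on the array labelled replicate 2. The median of the measured factors was 0.46 on the Cy5 array (40 genes), 1.09 on the Cy3 array (43 genes) and −0.03 on the array labelled replicate 2 (42 genes). On the Cy5 array 38 of 40 stood above 0, where 49.9% of all genes did. On the Cy3 array it was 39 of 43, against 50% of all genes, and on the array labelled replicate 2 it was 18 of 42, against 49.9%. Both arrays of replicate 1 placed 36 of 40 above 0, against 27.8% of all genes. A 2-fold excess was reached by 1 factor on the Cy5 array (3.7% of all genes), by 27 on the Cy3 array (6.1%) and by 0 on the array labelled replicate 2 (0.338%). The plot of every factor on the 3 arrays shows these values gene by gene.

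By limma, with the dye-swap pair averaged into 1 replicate, 0 of the 42 factors with a value in both replicates passed a Benjamini-Hochberg adjusted p of 0.05, and 0% of the 4598 genes tested did so. At an unadjusted p under 0.05 in limma, 2 factors were higher, NOG2 and PUF6, where 1.39% of all genes were, and 0 were lower, where 3.44% were. Every factor had an adjusted p of at least 0.925 in that fit. The replicate 1 value of NOG2 rests on the Cy3 array alone. Limma over only the genes measured on all 3 arrays left 1 of 40 factors at an unadjusted p under 0.05. Over all genes in that fit it was 211 of 4258, both directions counted. The 42 factors had a median of 0.79 in the averaged pair of replicate 1, with 40 of 42 above 0 against 51.8% of all genes, and of −0.03 on the array labelled replicate 2, with 18 of 42 above 0 against 50.1% of all genes tested. These medians gave a mean of 0.38 ± 0.58 (SD, n = 2). Over all genes tested the medians were 0.02 and 0.00. The gap between the replicates was therefore larger than the mean shift. Values above 0 in both replicates were found for 18 of 42 factors, against 26.6% of all genes, and values below 0 in both for 2 of 42, against 24.6%. These 18 are all the factors above 0 on the array labelled replicate 2, a share below that of all genes there.

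**Figure D1:**
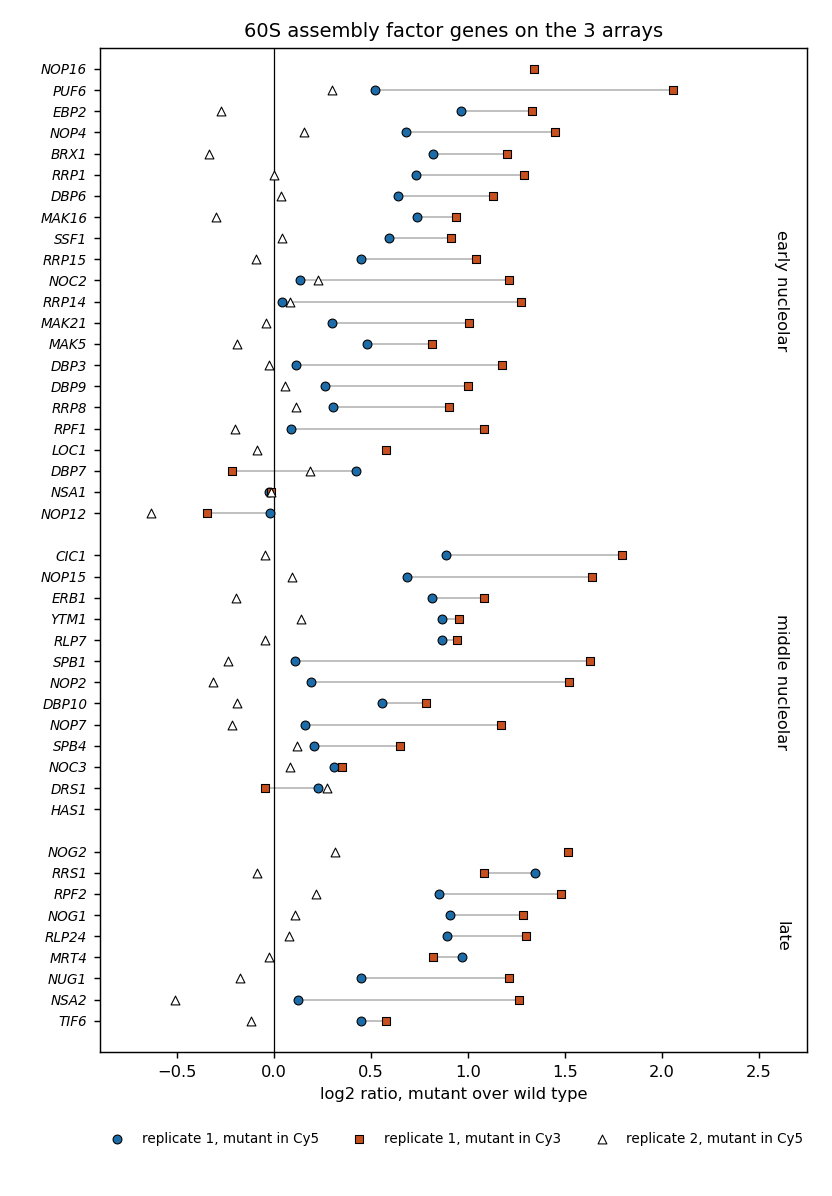
Log2 ratio of mutant over wild type (x axis) for each of the 44 genes (rows, grouped by assembly stage and ordered by the mean of replicate 1), with 1 symbol per array and a line joining the dye-swap pair. Squares, the replicate 1 array with the mutant in Cy3, lie to the right of circles, the one with the mutant in Cy5, for 35 of 40 genes, while triangles, the array labelled replicate 2, lie between −0.64 and 0.31. A missing symbol is a blank in the table.

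Of the 44 factors, 40 were measured on all 3 arrays. HAS1 (YMR290C), a helicase shared by both subunits' assembly lines, was blank on all of them and has no value here. NOP16 (YER002W) had a value on the Cy3 array alone, 1.34, and NOG2 (YNR053C) and LOC1 (YFR001W) were blank on the Cy5 array, so their replicate 1 value rests on the Cy3 array. The labels do not say what a blank stands for.

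The earliest factors bind the precursor while it is still being transcribed. NOP4 (YPL043W), a nucleolar protein with several RNA recognition motifs, was at 0.68 on the Cy5 array, 1.45 on the Cy3 array and 0.15 on the array labelled replicate 2. It is 1 of the 15 factors that stood above 0 on all 3 arrays, where 14.5% of all genes did. MAK21 (YDR060W) and NOC2 (YOR206W) encode partners that form a dimer on early particles. MAK21 was at 0.30, 1.00 and −0.04, and NOC2 at 0.14, 1.21 and 0.23, always in the order of the Cy5 array, the Cy3 array and the array labelled replicate 2, which also holds for the values that follow. NOC3 (YLR002C), with which Noc2 pairs in later particles, was lower than both on the Cy3 array, at 0.31, 0.35 and 0.08. RRP8 (YDR083W), a methyltransferase of the large ribosomal RNA, was at 0.31, 0.90 and 0.11.

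The DEAD-box helicases unwind RNA at the cost of ATP. Of the 8 measured, 6 were above 0 on both arrays of replicate 1, against 27.8% of all genes. DBP6 (YNR038W), DBP7 (YKR024C) and DBP9 (YLR276C) act in the first particles and DBP3 (YGL078C) speeds an early cleavage step. DBP6 was at 0.64, 1.13 and 0.03, DBP9 at 0.26, 1.00 and 0.06, and DBP3 at 0.11, 1.18 and −0.03. DBP7 went the other way within the dye-swap pair, at 0.42 on the Cy5 array and −0.22 on the Cy3 array, with 0.19 on the array labelled replicate 2. DRS1 (YLL008W), which acts later in the nucleolus, did the same, at 0.23, −0.05 and 0.27. MAK5 (YBR142W) was at 0.48, 0.81 and −0.19, DBP10 (YDL031W) at 0.56, 0.78 and −0.19, and SPB4 (YFL002C) at 0.21, 0.65 and 0.12. All 8 measured helicases were above 0 on the Cy5 array and 6 of 8 on the Cy3 array. Their median there, 0.80, was below the 1.09 of the whole set, and 5 of 8 were above 0 on the array labelled replicate 2.

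Several early factors work as small modules. In the Nsa1 module, which docks on one face of the young particle, RRP1 (YDR087C) was at 0.73, 1.29 and 0.00 and MAK16 (YAL025C) at 0.74, 0.94 and −0.30. RPF1 (YHR088W) differed sharply within the dye-swap pair, at 0.09 and 1.08, with −0.20 on the array labelled replicate 2. NSA1 (YGL111W) itself was flat on every array, at −0.03, −0.01 and −0.02, unlike its 3 partners on the Cy3 array. SSF1 (YHR066W), RRP14 (YKL082C) and RRP15 (YPR143W) encode a second set of proteins found together. SSF1 was at 0.59, 0.91 and 0.04, RRP14 at 0.04, 1.27 and 0.08, and RRP15 at 0.45, 1.04 and −0.10. SSF1 has a near-identical paralog, SSF2, at 0.62 and 1.29 on the arrays of replicate 1 and blank on the third, and a probe of one may bind transcripts of the other.

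EBP2 (YKL172W) and BRX1 (YOL077C), whose products bind each other and recruit further factors, were among the highest on the Cy5 array and among the lowest on the array labelled replicate 2. EBP2 was at 0.97, 1.33 and −0.28, and BRX1 at 0.82, 1.20 and −0.34. Of the 3 genes of this group that were measured there, EBP2, BRX1 and MAK5, all were below 0 on the array labelled replicate 2. BRX1 shares its Brix fold with RPF1, RPF2 (YKR081C) and SSF1, and these 4 relatives were all above 0 on both arrays of replicate 1. On the array labelled replicate 2 they split, with 2 above 0 and 2 below.

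PUF6 (YDR496C) had the highest ratio of any factor on a single array. Puf6 represses translation of ASH1 mRNA and also works in 60S assembly, as does its partner Loc1. PUF6 was at 0.52 on the Cy5 array and 2.06 on the Cy3 array, where it exceeded 99.6% of all genes, and at 0.30 on the array labelled replicate 2. Its mean was 0.79 ± 0.70 (SD, n = 2, limma SE 0.29, adjusted p = 0.925). LOC1 was at 0.58 on the Cy3 array and −0.09 on the array labelled replicate 2. NOP12 (YOL041C), which helps fold a small rRNA of the large subunit, was at −0.02, −0.35 and −0.64, the lowest factor on the Cy3 array and on the array labelled replicate 2. NOP12 and NSA1 were the 2 factors below 0 on all 3 arrays.

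The middle group acts on later nucleolar particles, around a spacer that is cut out next to 25S rRNA and at the cutting step named A3. Nop7, Erb1 and Ytm1 form a complex that the AAA-type ATPase Rea1 pulls from the particle. ERB1 (YMR049C) was at 0.81, 1.08 and −0.20 and YTM1 (YOR272W) at 0.87, 0.96 and 0.14, and their gaps within the dye-swap pair were below the median gap of the factors. NOP7 (YGR103W), their partner, was at 0.16, 1.17 and −0.22. Of the spacer-bound factors, CIC1 (YHR052W) and NOP15 (YNL110C) were the highest of the middle group on the Cy3 array. CIC1 was at 0.89, 1.79 and −0.05, and NOP15, an RNA-binding protein, at 0.68, 1.64 and 0.09. RLP7 (YNL002C), a relative of ribosomal protein L7 that binds next to them, was at 0.86, 0.95 and −0.05.

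Among the methyltransferase genes, NOP2 and SPB1 had gaps between the dyes of 1.33 and 1.52 and RRP8 one of 0.60, against a median of 0.47 for all 40 factors with both values. NOP2 (YNL061W), which methylates cytosine in 25S rRNA, was at 0.19 on the Cy5 array and 1.52 on the Cy3 array, with −0.32 on the array labelled replicate 2. SPB1 (YCL054W), which methylates ribose in the peptidyl transferase centre, was at 0.11, 1.63 and −0.24. For NOP2 and SPB1 the sign of the mean of the replicates depended on which array of the pair was used. With the Cy5 array alone as replicate 1 their means were −0.06 each, and with the pair averaged they were 0.27 and 0.32.

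Late factors remain on the particle as it leaves the nucleolus. Rpf2 and Rrs1 bring in the 5S particle with ribosomal proteins L5 and L11. RPF2 was at 0.85, 1.48 and 0.22, with a mean of 0.69 ± 0.67 (SD, n = 2). RRS1 (YOR294W) was the 1 factor at least 2-fold higher on the Cy5 array, at 1.34, and it was at 1.08 on the Cy3 array and −0.09 on the array labelled replicate 2. Among the GTPase genes, NOG1 (YPL093W), whose product leaves only in the cytoplasm, was at 0.91, 1.28 and 0.11, and NUG1 (YER006W) at 0.45, 1.21 and −0.18. NOG2, which acts as a checkpoint before export, had 1.52 on the Cy3 array and 0.31 on the array labelled replicate 2, the highest value of any factor there. Its mean of 0.91 ± 0.85 (SD, n = 2, limma SE 0.32, adjusted p = 0.925) was also the highest of the 42, but its replicate 1 value is the Cy3 array alone. With the Cy3 array alone as replicate 1 for every factor, PUF6 had a mean of 1.18, against 0.91 for NOG2.

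The remaining late factors include placeholders for ribosomal proteins that join in the cytoplasm. RLP24 (YLR009W) holds the place of ribosomal protein L24 and was at 0.89, 1.30 and 0.08. MRT4 (YKL009W) holds the place of the stalk protein P0 and was at 0.97, 0.82 and −0.03. TIF6 (YPR016C), which keeps the subunits apart until maturation ends, had the smallest replicate 1 mean of the late group, at 0.45, 0.57 and −0.12. NSA2 (YER126C) was at 0.12, 1.26 and −0.51, the lowest late factor on the Cy5 array and on the array labelled replicate 2. The genes of the ribosomal proteins that Rlp7, Rlp24 and Mrt4 resemble were lower with the mutant in Cy3, as was MRT4 itself. This held for all 75 genes of 60S ribosomal proteins measured on both arrays. RPL7A and RPL7B were at 1.07 and 0.94 on the Cy5 array but 0.05 and 0.41 on the Cy3 array, and RPL24A and RPL24B at 0.85 and 0.90 but 0.10 and −0.01. RPP0, the gene of P0, was at −0.17 and −0.79.

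Early factors had lower medians than late ones on both arrays of replicate 1 and a nearly equal one on the array labelled replicate 2. On the Cy5 array the 20 early genes had a median of 0.43, against 0.87 for the 8 late genes, a difference of −0.44. On the Cy3 array 22 early genes had 1.06, against 1.26 for 9 late genes, a difference of −0.20. On the array labelled replicate 2 the medians were −0.02 for 21 early genes and −0.03 for 9 late genes, a difference of 0.01. Middle factors lay at 0.43, 1.02 and −0.05 on the 3 arrays. In the averaged replicate 1 the medians were 0.66 for early, 0.86 for middle and 1.10 for late factors. Ranges overlapped on all 3 arrays. In replicate 1 as a whole the early genes ran from −0.19 to 1.29 and the late genes from 0.51 to 1.52. The late maximum is NOG2, whose value rests on the Cy3 array alone. Of 21 early genes 2, EBP2 and PUF6, lay above the late median of 1.10. NOP12, DBP7 and NSA1, the 3 lowest early factors, ran from −0.19 to 0.10 in replicate 1, while the lowest late factor, TIF6, was at 0.51. By role, NOP12 was listed with CIC1, NOP15 and RLP7, which were placed in the middle group. The difference with NOP12 moved there was not computed. The mean difference of early minus late was −0.22 ± 0.32 (SD, n = 2), smaller than the spread between replicates. It also depended on where factors were placed. With RPF2 and RRS1 counted as early it was −0.11 (−0.22 in replicate 1), and with the middle factors counted as late it was −0.10 (−0.24 in replicate 1). Over the genes measured on all 3 arrays, which leaves out NOG2 and LOC1, it was −0.14 (−0.33 in replicate 1). No p is given for it, since with 2 replicates the exact two-sided sign-flip test has a smallest p of 0.5.

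**Figure D2:**
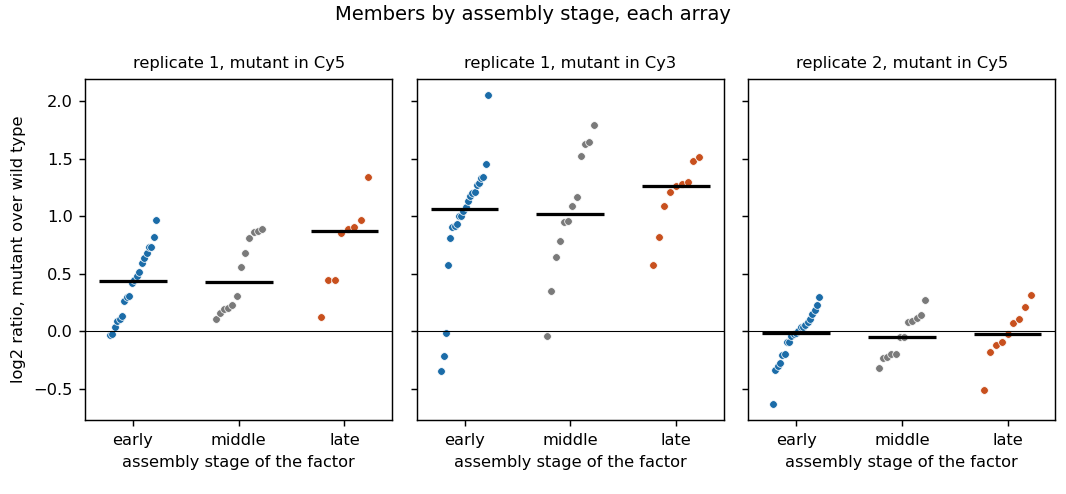
Log2 ratio of mutant over wild type (y axis) for each measured factor, by assembly stage (x axis) and array (panels). Each point is a gene and each bar the median of its stage, which on the replicate 1 array with the mutant in Cy5 is 0.43 for early and 0.87 for late factors and on the array labelled replicate 2 is −0.02 and −0.03.

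Gene length moved with the ratios on the Cy5 array. Over all 4598 genes with a length there, Spearman's rho between length and ratio was −0.40 on the Cy5 array, and over 4588 genes it was 0.10 on the Cy3 array. The shortest sixth of genes had a median of 0.34 on the Cy5 array and the longest sixth one of −0.37. These are correlations across genes, which share the array and are not independent replicates. Among the factors rho was −0.34 on the Cy5 array (40 genes) and −0.09 on the Cy3 array (43 genes). Late genes were shorter, with a median length of 786 bp against 1371 bp for early and 1821 bp for middle genes. With the length trend of all genes taken off each array, an alternative chosen after seeing the data, the difference of early minus late in replicate 1 was −0.27, against −0.44 before, and the median of all factors was 0.79 before and after. Factors shorter than the set's median of 1388 bp had a median of 0.73 on the Cy5 array and the longer ones 0.30, while on the Cy3 array the shorter ones had 1.08 and the longer ones 1.13.

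**Figure D3:**
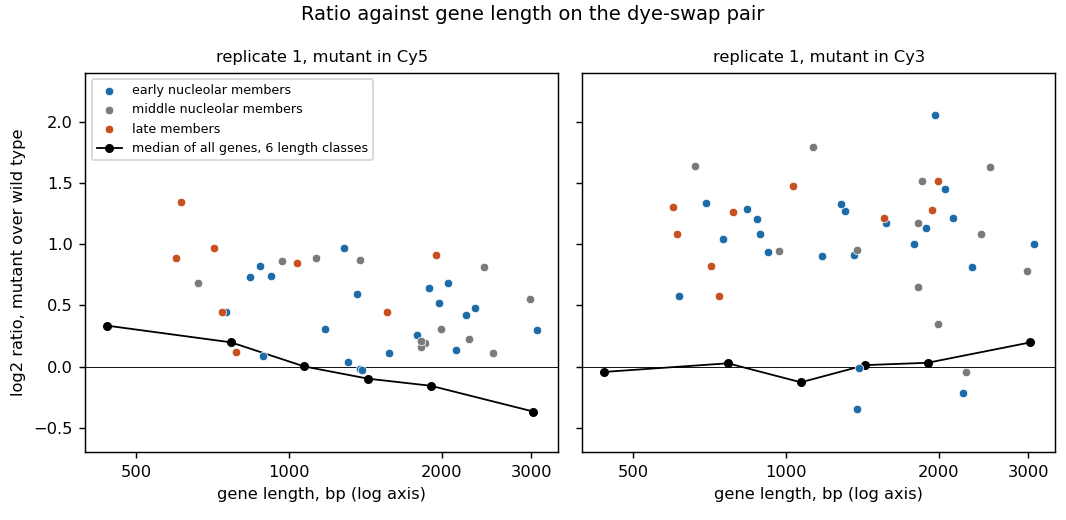
Log2 ratio of mutant over wild type (y axis) against gene length in bp (x axis, log scale) on the dye-swap pair of replicate 1, with factors coloured by assembly stage and the median of all genes in 6 length classes as a line. On the array with the mutant in Cy5 the line descends to −0.37 in the longest class, against 0.34 in the shortest.

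The assembly factors and the ribosomal proteins differed in opposite directions within the dye-swap pair. Of 40 factors measured on both arrays, 35 were higher with the mutant in Cy3 than with the mutant in Cy5, against 48.1% of all genes, and the median gap was 0.47 against −0.03 over all genes. The exceptions were DBP7, NOP12, DRS1, RRS1 and MRT4. Among the genes of 60S ribosomal proteins, which are the structural parts of the same subunit, 0 of 75 were higher with the mutant in Cy3, and the median gap was −0.75. Their medians were 0.80 on the Cy5 array, 0.02 on the Cy3 array and −0.01 on the array labelled replicate 2. Both lists were above 0 on the Cy5 array in nearly the same share, 38 of 40 factors and 72 of 76 ribosomal protein genes. A dye-dependent part of these ratios cannot be told apart from the mutant's effect on any 1 array, and the array labelled replicate 2 has no swapped partner.

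**Figure D4:**
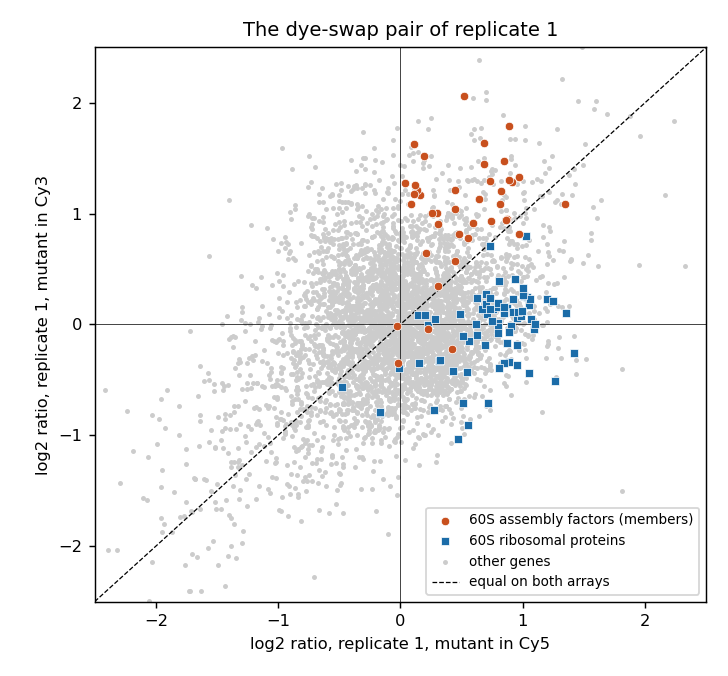
Log2 ratio of mutant over wild type on the replicate 1 array with the mutant in Cy3 (y axis) against the one with the mutant in Cy5 (x axis), 1 point per gene, with the diagonal dashed. Of 4546 genes with both values, 36 lie outside the axes, none of them a factor. The factors lie above the diagonal for 35 of 40 genes and the 60S ribosomal protein genes below it for all 75.

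Lists of other genes that make ribosomes also had medians above 0 on both arrays of replicate 1. The list of 42 further 60S assembly and export factors had medians of 0.35, 0.93 and 0.06, with 27 of 40 above 0 on both arrays of replicate 1 and 28 of 40 higher with the mutant in Cy3. Its largest mean changes with 1 sign on all arrays were in ALB1, a shuttling partner of the export factor Arx1, at 1.96, 1.70 and 0.31, and IPI3, a subunit of the Rix1 complex, at 0.70, 2.10 and 0.36. SYO1, which imports L5 together with L11, was at 0.65, 1.68 and 0.20, and ECM1, an export factor, at 1.18, 1.37 and 0.05. The 71 genes of the small subunit processome and 40S assembly had medians of 0.54, 0.94 and 0.07, with 47 of 63 above 0 on both arrays of replicate 1 and 45 of 63 higher with the mutant in Cy3. Among them RRP36 was at 1.32, 2.21 and 0.23 and PNO1 at 1.15, 1.29 and 0.52. RNA polymerase I genes, which make the precursor RNA, were at 0.48, 0.33 and 0.02 over 7 measured genes, and 3 of 7 were higher with the mutant in Cy3. Over all genes, 27.8% were above 0 on both arrays of replicate 1 and 48.1% were higher with the mutant in Cy3. None of the genes of these lists passed the test over all genes in either direction in limma. At an unadjusted p under 0.05 in limma, 1.39% of all genes tested were higher. In the other 60S, 40S, polymerase I and 60S ribosomal protein lists it was 2 of 38, 9 of 62, 0 of 7 and 1 of 77. The differences between these lists and the factors were not tested.

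**Figure D5:**
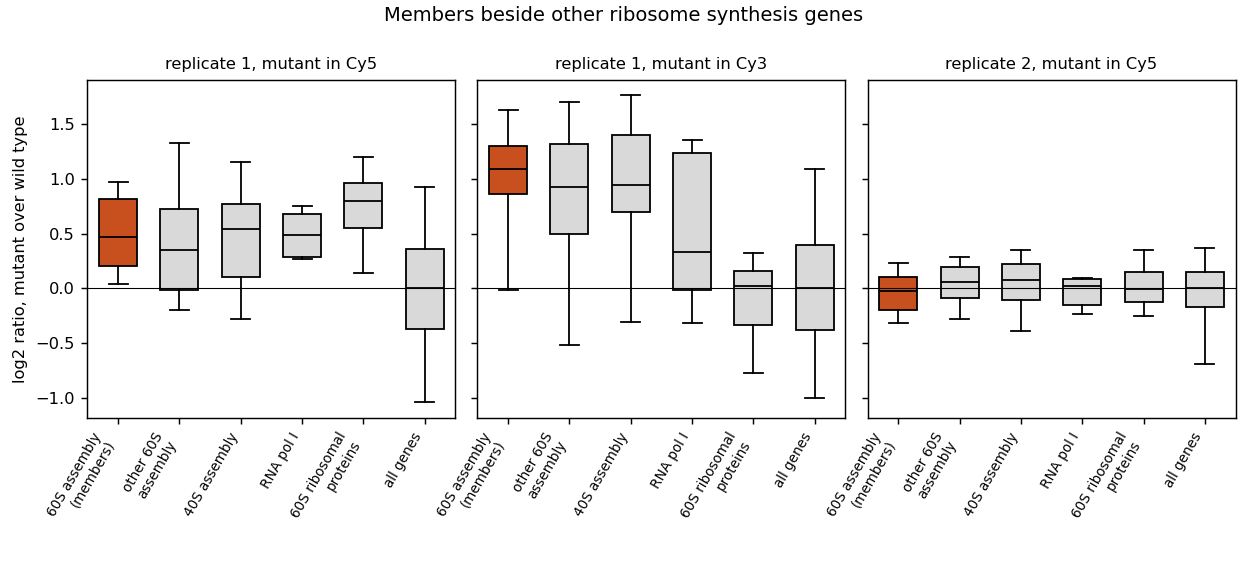
Log2 ratio of mutant over wild type (y axis) for the 60S assembly factors and, to their right, 4 other lists and all genes (x axis), with a panel per array. Boxes span the interquartile range of the genes with the median as a line, and whiskers run from the 5th to the 95th percentile. Assembly lists stand highest on the array with the mutant in Cy3 (1.09 for the factors), 60S ribosomal proteins on the one with the mutant in Cy5 (0.80), and all medians lie near 0 on the array labelled replicate 2.

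The order of the factors was only loosely shared between arrays. Across factors, Pearson's r was 0.32 within the dye-swap pair (40 genes), against 0.51 over all genes. By rank they were closer, with a Spearman's rho of 0.24 for the factors and 0.29 over all genes. Between replicate 1 and the array labelled replicate 2, Pearson's r was 0.21 (42 genes), against 0.16 over all genes. Spearman's rho there was 0.11 for the factors and 0.07 over all genes. These correlations are descriptions over genes that share arrays. Their SD was 0.34 on the Cy5 array, 0.51 on the Cy3 array and 0.21 on the array labelled replicate 2, where all genes had 0.35. On that array the highest were NOG2, PUF6, DRS1, NOC2 and RPF2, from 0.31 to 0.22, and the lowest were NOP12, NSA2, BRX1, NOP2 and MAK16, from −0.64 to −0.30. Chromosome position moved with the ratios for other genes, since chromosome IX had medians of −0.80 and −0.62 on the arrays of replicate 1, but 0 of the 44 factors lie there. The 6 factors on chromosomes VII and VIII had medians of 0.14, 1.13 and −0.04, against 0.50, 1.09 and −0.01 for the other 38.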

How the data were processed

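The deposited table gives a log2 ratio for each gene on 3 arrays with 2 colours. How the authors scanned, background-corrected, filtered and normalized the spots is not stated in the labels. Intensities were not used, so distance from background is unknown. Read as log2, 100% of the deposited values are whole thousandths as ratios, within the table's rounding, against 9.94 to 11.4% with the sign turned. Per the labels, labelling started from 8 µg of total RNA with oligo(dT). The numerator is not stated, and the titles name the wild type first on 2 of the 3 arrays and the mutant first on the swapped one. Mutant over wild type was taken because VHS3 and HAL3 then come out lower in replicate 1, although URA3, the mutant's marker, does too. The dye-swapped array correlated with its partner as deposited (r of 0.51 across genes) and so was not turned. Every array's median was then subtracted from its ratios.

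The dye-swap pair was averaged into 1 replicate, with 1 value used where the other was blank. The 4598 genes with a value in both replicates were fitted against 0 in limma (version 3.58.1, R version 4.3.3; lmFit, eBayes; n = 2, residual df 1, prior df 5.15), two-sided, with Benjamini-Hochberg adjustment over all of them. Each p-value tests the mean of these 2 samples, 1 of which goes against its label, against 0. The variance behind it comes more from all genes together (prior df 5.15) than from the gene's own spread (residual df 1). On simulated data of the same size (4598 genes, 200 changed, 20 draws) calls were made for 0.1% of the 2-fold, 36% of the 4-fold and 58.3% of the 8-fold changes. Each simulated gene's SD was drawn from the observed SDs, which rest on 2 values each and so scatter more than true ones. The rates therefore need not hold for the reported fit.

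The members, the stage and comparison lists, the tests and the alternatives were chosen with earlier results of these data known. Stages came from textbook knowledge, and each factor was placed once. Named were all members, the altered genes, relatives of members, and up to 4 genes per other list with the largest mean change and 1 sign on all arrays. The pattern for 60S ribosomal proteins was narrowed to leave out an RNase P gene after the values were seen. RefSeq's R64 table named 5638 of 6212 rows and gave chromosomes and gene lengths, introns included. Gene sequences were not used here, so the planned motif search was not run.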

Additional observations from a re-analysis of the deposited data

How the results depend on the processing

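In 13 alternatives for the calls (single arrays of the pair, 3 arrays as if independent, dye as a coefficient, centring, spread, quantiles, complete genes, chromosome medians, gene length, variance prior, threshold, chromosomes VII and VIII) 0 factors passed, with the smallest adjusted p in limma between 0.254 and 0.934. Over all genes the call count was 0 in the reported fit, 13 with the Cy3 array alone as replicate 1, 17 with 3 arrays as if independent, 4 with equal spread per array and 11 with quantile normalization. The median of the factors ranged from 0.22 to 0.65 over 11 alternatives and was −0.03 without replicate 1 and 0.79 without replicate 2. Early minus late ranged from −0.22 to −0.10 over 15, with the smallest sizes when RPF2 and RRS1 were counted as early (−0.11), when middle factors were counted as late (−0.10) and with the Cy3 array alone as replicate 1 (−0.11), and was 0.01 without replicate 1 and −0.44 without replicate 2. Factors above 0 in both replicates numbered 18, and those above 0 in the remaining replicate 18 without replicate 1 and 40 without replicate 2. This count has no value with dye as a coefficient. With both replicates in use, 446 of 456 single-factor values kept their direction and their side of the threshold. The variance prior and the complete-gene setting could not turn a direction, since they left each factor's mean unchanged. As 0 factors passed in any alternative, the threshold told none of them apart. With the Cy5 array alone as replicate 1, NOP2 was at −0.0628, NOP7 at −0.0294, RPF1 at −0.0583, SPB1 at −0.0641 and NSA2 at −0.20. With the Cy3 array alone DBP7 was at −0.0155. NSA1 was at 0.0118 without centring and 0.00458 without the length trend, and NSA2 at −0.20 with equal spread and −0.11 with quantile normalization. Without replicate 1, 23 factors were below 0, while 2 of the 42, NOP12 and NSA1, had a mean below 0 in the reported fit. The cause of these turns was not tested.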

Other observations

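Genes next to the assembly factors on their chromosomes did not share their level in replicate 1. The 83 direct neighbours that are in none of the ribosome lists had medians of 0.13 on the Cy5 array (63 measured), 0.02 on the Cy3 array (67 measured) and 0.01 on the array labelled replicate 2 (68 measured), against 0.46, 1.09 and −0.03 for the factors. Above 0 were 34 of 63, 37 of 67 and 35 of 68 of them. Neighbours outside the lists can still be genes that serve the ribosome, such as RPS15 beside NOP12 and RRP3 beside SSF1. In 4 places the neighbour is in the list of 40S assembly genes. LCP5, which faces NSA2 across the intergenic region by the strand letters of their names, was at 0.90, 1.49 and 0.22, against 0.12, 1.26 and −0.51 for NSA2. CMS1 beside NOC3 was at 0.54, 0.96 and 0.16. NOC4, a small subunit processome protein encoded tail to tail with RRP15, was at 0.75, 0.90 and 0.26, and ESF2, on the same strand as NOG2, at 0.57, 0.90 and −0.32. The labels do not say whether the spotted probes tell strands apart.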
